A study of Mus musculus with 6 samples.

Results

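MAPK feedback inhibitors are proteins that growth factor signalling induces and that then damp the same signalling. The 10 genes described here are the dual-specificity phosphatase genes Dusp1, Dusp4, Dusp5 and Dusp6, the Sprouty genes Spry1, Spry2 and Spry4, the Sprouty-related genes Spred1 and Spred2, and Errfi1. They were taken by symbol from the 35275 genes of the deposited table, all 10 were found, and all 10 passed the filter on low values. RNA was sequenced in 6 libraries of 3T3 cells, an immortal line of mouse embryo fibroblasts. Of these, 3 were of cells that overexpress NNMT (nicotinamide N-methyltransferase, which moves a methyl group from S-adenosylmethionine to nicotinamide) from a construct, and 3 were of cells with a control construct (Ctrl). Both groups had grown for 48 h in methionine-free DMEM to which 10 µM methionine had been returned, with 10% dialyzed serum. The sources used here do not give the promoter or species of the construct, nor whether each group came from 1 transduced population. Differences between starting populations and effects of NNMT cannot be told apart in that case. The p-values set the group difference only against the spread between these libraries.

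In the ERK branch of MAPK signalling, an activated receptor tyrosine kinase loads Ras with GTP, Ras recruits Raf, Raf activates MEK, and MEK phosphorylates ERK, which enters the nucleus and raises transcription of many genes. Some of these encode brakes that act at different levels. Dual-specificity phosphatases remove the activating phosphates from MAP kinases, Sprouty and Spred proteins act near Ras and Raf, and the Errfi1 protein binds and inhibits the EGF receptor family directly. Because ERK activity induces several of these genes, their transcripts are widely read as markers of ERK output, although other pathways also control them.

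Between 31620258 and 39980003 reads or fragments per library were recovered from the deposited values. Levels are in FPKM, which scales the reads of a gene by its length and by the library total; 1 read on 1 kb amounts to 0.025 FPKM in the deepest library and 0.0316 FPKM in the shallowest. Each member rested on at least 378 reads in every library. Nnmt stood at 15.7 FPKM in the NNMT library whose column carries no replicate number (called unnumbered), 15.0 in NNMT replicate 2 and 18.3 in NNMT replicate 3, against 7.60, 5.25 and 6.51 in Ctrl replicates 1, 2 and 3. Nnmt was thus higher in the NNMT libraries (2.53-fold, limma adjusted p = 4.75e-06). These values are of the mouse Nnmt gene, and since the species of the construct is not given, whether they include its transcripts cannot be told. All 12 fibroblast markers exceeded a mean of 1 FPKM, with summed levels of 10400 to 11800 FPKM in NNMT libraries and 8200 to 8480 FPKM in Ctrl libraries. Of 24 markers of 6 other cell types, Cd68, Acta1 and Tubb3 alone averaged 1 FPKM or more; 5 (Epcam, Krt18, Myod1, Myog and Adipoq) were at 0 in every library. The summed neural markers, Tubb3 among them, lay at 0.0634 to 0.123 FPKM in NNMT libraries and 3.53 to 3.88 FPKM in Ctrl libraries. The epithelial and adipocyte sums were also lower in every NNMT library, each at most 0.17 FPKM in any library. The part of these marker differences in the results below was not tested. In bulk RNA, fewer cells with a transcript and less of it per cell cannot be told apart.

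The feedback genes moved in both directions. Of the 10, 6 were lower in NNMT cells (Errfi1, Dusp6, Spry4, Dusp4, Dusp5 and Spred1), 3 were higher (Spry1, Dusp1 and Spry2) and Spred2 did not pass the threshold, an adjusted p under 0.05 in limma over 10882 genes. The transcriptomes of the groups differed broadly, since 65.6% of all genes tested passed the same test, 30.6% as lower and 35.0% as higher. The median log2 fold change of the 10 members, chosen with earlier results of these data known, was -0.36, beside 0.03 for all genes tested. Log2 fold changes here and below are NNMT over Ctrl on log2(FPKM + 1), where the added 1 makes the change of a gene at low level look smaller. For 9 of the 10 members no NNMT library fell within the range of the Ctrl libraries, which was so for 69.9% of all genes tested (37.2% with NNMT libraries higher and 32.7% with NNMT libraries lower). Permuting the library labels of each of these 9 exactly (two-sided) gave p = 0.1, which no comparison of 3 libraries with 3 can go below.

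**Figure D1:**
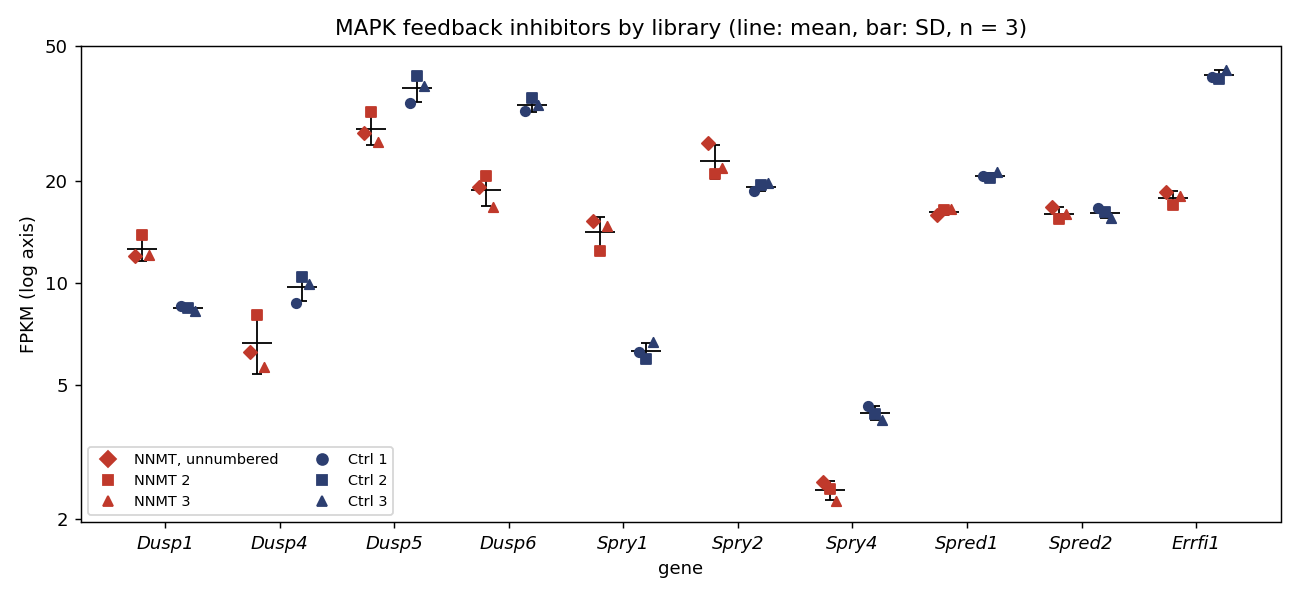
Level of each feedback gene in every library, in FPKM on a log axis, with NNMT libraries on the left of each pair and Ctrl libraries on the right; points are libraries, horizontal lines means and bars SD (n = 3 each). The 2 groups are apart for every gene except Spred2, with Errfi1 the most widely spaced downward (means of 17.8 and 41.0 FPKM) and Spry1 upward (14.1 and 6.27 FPKM).

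Errfi1 (ENSMUSG00000028967, GRCm38 chromosome 4, 150853919 to 150868892, plus strand) encodes the inhibitor that docks on the kinase domain of EGF receptors and speeds their degradation. It had 18.5, 16.9 and 18.0 FPKM in the unnumbered NNMT library and NNMT replicates 2 and 3, against 40.4, 40.0 and 42.5 FPKM in Ctrl replicates 1, 2 and 3. The groups were far apart, with the lowest Ctrl library 2.16 times the highest NNMT library. The means were 17.8 ± 0.82 FPKM in NNMT cells and 41.0 ± 1.36 FPKM in Ctrl cells (SD, n = 3 each), a level 2.3-fold lower in NNMT cells. Its log2 fold change of -1.16 (SE 0.0505, limma adjusted p = 4.13e-08) was the largest of the 10 in size and larger in size than those of 97.2% of all genes tested. An antisense gene, 1700045H11Rik, shares 1031 bases with the span of Errfi1 and was at 0 in every library.

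Promoter windows of 300 bases, from 250 before to 50 after the RefSeq start (GRCm38.p6), were held for 8 of the 10 members. Of these, 4 windows are printed, from the members with the largest fall (Errfi1) and rise (Spry1) and from the phosphatases Dusp1 and Dusp5. Dusp5 moved in the opposite direction to Dusp1, as did Dusp4 and Dusp6, which are not printed. All windows held were searched on both strands for the CRE core TGACGT, the AP-1 motif TGANTCA, the ETS motif CGGAAGT and the CArG box, which binds serum response factor. Of 32851 promoter windows in RefSeq, 7.51% held the CRE core, 7.81% the AP-1 motif, 6.42% the ETS motif and 1.63% a CArG box. Errfi1 has 2 annotated windows. The one at chr4:150854820-150855119, plus strand, is shown with the CRE core in capitals, where matches on the 2 strands overlap in a palindrome that starts 51 bases before the start site.
Errfi1: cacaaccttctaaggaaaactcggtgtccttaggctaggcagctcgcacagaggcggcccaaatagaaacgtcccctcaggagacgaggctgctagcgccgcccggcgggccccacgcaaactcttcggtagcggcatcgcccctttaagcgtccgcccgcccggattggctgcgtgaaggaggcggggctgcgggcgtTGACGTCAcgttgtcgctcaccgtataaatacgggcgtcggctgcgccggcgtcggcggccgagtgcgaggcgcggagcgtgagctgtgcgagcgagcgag
The other Errfi1 window held none of the 4 motifs. A match describes letters only, and no binding was measured.

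Among the phosphatases, which inactivate MAP kinases, 3 were lower in NNMT cells and 1 was higher. Dusp6 (ENSMUSG00000019960, chromosome 10, 99263231 to 99267489, plus strand) encodes the cytoplasmic phosphatase with a strong preference for ERK. It had 19.1, 20.6 and 16.7 FPKM in the unnumbered NNMT library and NNMT replicates 2 and 3, against 32.1, 35.1 and 33.4 FPKM in Ctrl replicates 1, 2 and 3. Every NNMT library was lower than every Ctrl library by a wide margin. The level was 1.78-fold lower in NNMT cells (log2 fold change -0.81, SE 0.0706, limma adjusted p = 4.55e-06), and 93.0% of genes tested changed by less.

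Dusp5 (ENSMUSG00000034765, chromosome 19, 53529109 to 53542431, plus strand), the nuclear phosphatase specific for ERK, had 27.6, 31.8 and 26.0 FPKM in the unnumbered NNMT library and NNMT replicates 2 and 3, against 33.9, 40.8 and 38.2 FPKM in Ctrl replicates 1, 2 and 3. The groups came close, with the lowest Ctrl library 1.07 times the highest NNMT library. The means of 28.5 ± 2.99 FPKM in NNMT cells and 37.6 ± 3.49 FPKM in Ctrl cells differed by a log2 fold change of -0.39 (SE 0.082, limma adjusted p = 0.00175). Dusp4 (ENSMUSG00000031530, chromosome 8, 34807297 to 34819894, plus strand), a nuclear phosphatase for ERK and other MAP kinases, had 6.23, 8.04 and 5.65 FPKM in the unnumbered NNMT library and NNMT replicates 2 and 3, against 8.73, 10.4 and 9.89 FPKM in Ctrl replicates 1, 2 and 3. NNMT replicate 2 lay near the lowest Ctrl library, and the other 2 NNMT libraries lay well under it. Dusp4 was 1.46-fold lower in NNMT cells (log2 fold change -0.49, SE 0.105, limma adjusted p = 0.00197).

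Dusp1 (ENSMUSG00000024190, chromosome 17, 26505590 to 26562128, minus strand), an immediate early nuclear phosphatase that acts on p38 and JNK as well as ERK, went the other way. It had 12.0, 13.8 and 12.1 FPKM in the unnumbered NNMT library and NNMT replicates 2 and 3, against 8.55, 8.41 and 8.27 FPKM in Ctrl replicates 1, 2 and 3. All NNMT libraries were higher than all Ctrl libraries, and the Ctrl libraries hardly differed among themselves. The level was 1.5-fold higher in NNMT cells (log2 fold change 0.53, SE 0.0601, limma adjusted p = 2.75e-05). The annotated span of Dusp1 shares 640 bases with Ergic1 and 956 bases with the pseudogene Gm8225, both on the opposite strand. The sources used here do not say whether reads were counted by strand. Gm8225 reached at most 0.129 FPKM in any library. Ergic1 averaged 85.9 ± 3.15 FPKM in NNMT cells and 88.0 ± 1.66 FPKM in Ctrl cells, with overlapping groups.

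The Dusp1 and Dusp5 windows both held the CRE core and differed in the CArG box. Dusp1, at chr17:26508423-26508722 on the minus strand, held the CRE core at 3 positions, of which 2 overlap in a palindrome, and no CArG box. That window lies inside the annotated span of Dusp1 and not at the outer start of the span, 26562128. Dusp5, at chr19:53528895-53529194 on the plus strand, held 1 CRE core and 2 adjoining CArG boxes that start 82 and 72 bases before the start site. Capitals mark these matches in both.
Dusp1: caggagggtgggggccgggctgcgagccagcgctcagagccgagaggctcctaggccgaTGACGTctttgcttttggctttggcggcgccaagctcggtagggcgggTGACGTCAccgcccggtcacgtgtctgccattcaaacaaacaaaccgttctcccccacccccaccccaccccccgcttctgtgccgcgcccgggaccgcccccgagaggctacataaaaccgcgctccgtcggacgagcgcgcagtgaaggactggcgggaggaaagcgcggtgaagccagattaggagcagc
Dusp5: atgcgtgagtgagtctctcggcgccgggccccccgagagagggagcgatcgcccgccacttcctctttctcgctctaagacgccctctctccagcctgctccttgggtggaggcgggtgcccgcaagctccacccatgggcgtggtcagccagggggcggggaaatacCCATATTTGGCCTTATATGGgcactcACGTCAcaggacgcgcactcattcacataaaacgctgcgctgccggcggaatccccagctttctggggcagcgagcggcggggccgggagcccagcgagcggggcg
The Spred2 window held 1 CRE core. The windows of Dusp6, Spred1 and Spry2 held none of the 4 motifs, so Dusp6, which fell more than Dusp5, had no CArG box. None of the windows of the members held AP-1 or ETS letters as searched.

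The Sprouty genes, whose products bind signalling proteins near the receptor and Raf, did not move as a family. Spry1 (ENSMUSG00000037211, chromosome 3, 37639947 to 37644598, plus strand) had 15.2, 12.4 and 14.7 FPKM in the unnumbered NNMT library and NNMT replicates 2 and 3, against 6.23, 5.93 and 6.66 FPKM in Ctrl replicates 1, 2 and 3. Its lowest NNMT library was 1.86 times its highest Ctrl library. The mean was 14.1 ± 1.5 FPKM in NNMT cells and 6.27 ± 0.369 FPKM in Ctrl cells, 2.25-fold higher in NNMT cells (log2 fold change 1.05, SE 0.0756, limma adjusted p = 1.16e-06). The window of Spry1, at chr3:37639697-37639996 on the plus strand, held none of the 4 motifs and so has no capitals.
Spry1: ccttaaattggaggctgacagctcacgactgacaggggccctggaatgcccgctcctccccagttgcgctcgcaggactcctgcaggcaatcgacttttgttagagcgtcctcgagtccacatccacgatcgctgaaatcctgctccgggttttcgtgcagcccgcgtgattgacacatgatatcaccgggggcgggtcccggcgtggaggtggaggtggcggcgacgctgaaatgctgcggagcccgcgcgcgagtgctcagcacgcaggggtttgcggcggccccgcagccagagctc

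Spry4 (ENSMUSG00000024427, chromosome 18, 38586247 to 38601415, minus strand), an inhibitor of Ras activation downstream of growth factor receptors, moved in the opposite direction to Spry1. It had 2.58, 2.46 and 2.27 FPKM in the unnumbered NNMT library and NNMT replicates 2 and 3, against 4.32, 4.10 and 3.94 FPKM in Ctrl replicates 1, 2 and 3. The groups did not overlap, and the level was 1.69-fold lower in NNMT cells (log2 fold change -0.58, SE 0.0652, limma adjusted p = 2.84e-05). The ratio of Spry1 to Spry4, both in FPKM, was 5.91, 5.04 and 6.47 in the unnumbered NNMT library and NNMT replicates 2 and 3, against 1.44, 1.44 and 1.69 in Ctrl replicates 1, 2 and 3.

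Spry2 (ENSMUSG00000022114, chromosome 14, 105891947 to 105896819, minus strand), the Sprouty protein also known for binding the ubiquitin ligase Cbl, had 25.9, 21.0 and 21.8 FPKM in the unnumbered NNMT library and NNMT replicates 2 and 3, against 18.6, 19.4 and 19.7 FPKM in Ctrl replicates 1, 2 and 3. The unnumbered NNMT library stood well above the rest, and NNMT replicate 2 was only 1.07 times the highest Ctrl library. Its log2 fold change of 0.23 (SE 0.0719, limma adjusted p = 0.0151) had a size in the middle of the genes tested, of which 49.4% changed by less. Spry2 was the 1 member whose call depended on the processing. Without the unnumbered NNMT library its log2 fold change was 0.15 (adjusted p = 0.0237), without Ctrl replicate 1 it was 0.21 (adjusted p = 0.0502), and adjusted p ranged from 0.0033 to 0.0779 over 17 alternatives.

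The Spred proteins bind neurofibromin and keep Ras from activating Raf. Spred1 (ENSMUSG00000027351, chromosome 2, 117121374 to 117182279, plus strand) had 15.8, 16.4 and 16.5 FPKM in the unnumbered NNMT library and NNMT replicates 2 and 3, against 20.6, 20.4 and 21.2 FPKM in Ctrl replicates 1, 2 and 3. Libraries of a group were nearly alike, with SDs of 0.405 FPKM in NNMT cells and 0.399 FPKM in Ctrl cells, and the groups were apart. Spred1 was 1.28-fold lower in NNMT cells (log2 fold change -0.33, SE 0.0457, limma adjusted p = 0.000107).

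Spred2 (ENSMUSG00000045671, chromosome 11, 19924375 to 20024026, plus strand) had 16.7, 15.4 and 16.0 FPKM in the unnumbered NNMT library and NNMT replicates 2 and 3, against 16.6, 16.2 and 15.5 FPKM in Ctrl replicates 1, 2 and 3. The groups overlapped. The log2 fold change was -0.01 with a 95% interval from -0.12 to 0.11, which on this scale bounds the difference between 0.92-fold and 1.08-fold (limma adjusted p = 0.918). The comparison rested on 7972 reads in NNMT libraries and 7497 in Ctrl libraries.

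**Figure D2:**
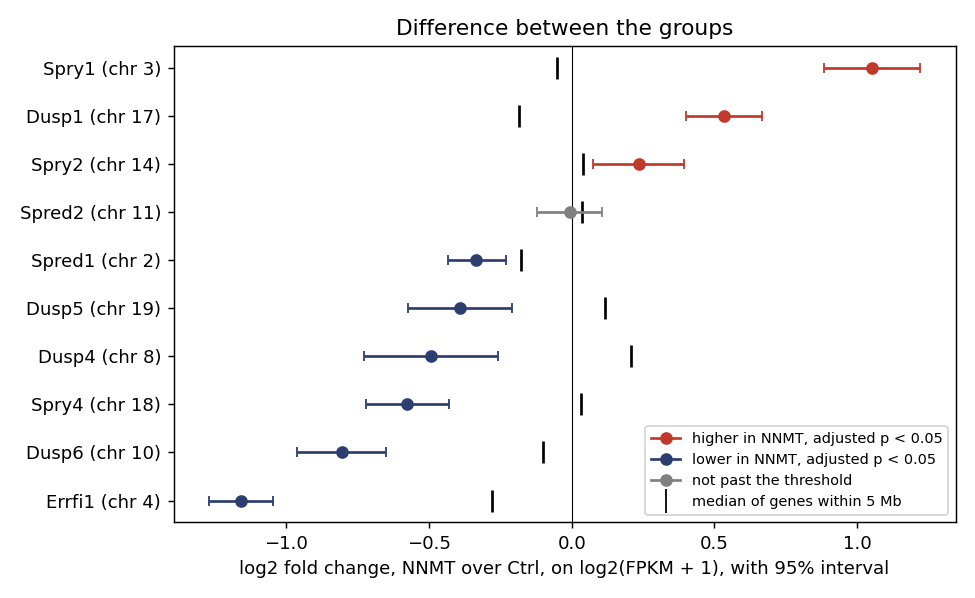
Log2 fold change of each feedback gene, NNMT over Ctrl on log2(FPKM + 1), with its 95% interval from limma; coloured by direction where the adjusted p was under 0.05, and with a black tick at the median log2 fold change of the tested genes within 5 Mb. Errfi1 (-1.16) and Spry1 (1.05) are at the ends, Spred2 (-0.01) spans 0, and each of the 9 called members lies farther from 0 than its tick.

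The changes were set beside those of neighbouring genes, because whole chromosomes and long intervals differ in level between these groups. Errfi1 lies in such an interval of chromosome 4, where the 83 other tested genes within 5 Mb had a median log2 fold change of -0.28 and 58 of them were lower in NNMT cells. Its own value exceeded that median in size by 0.88. Over all 688 tested genes of chromosome 4 the median was -0.23, so the shift was not particular to this interval. Spred1, on chromosome 2, lay closest to its surroundings among the called members that fell, with a median of -0.18 over 80 neighbours against its own -0.33. For Dusp4, Dusp5 and Spry4 the neighbours had medians above 0 (0.21, 0.12 and 0.03), opposite in sign to the genes themselves. Dusp1, at 0.53, stood among 146 neighbours with a median of -0.18, and Spry1, at 1.05, among 29 with a median of -0.05. Dusp6 had 18 neighbours with a median of -0.10, and Spry2 had 13 with a median of 0.04. No member is X-linked. What part such regional differences have in a member's value was not tested.

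The order of the 10 levels differed between the groups. In NNMT cells Dusp5 was the most abundant per length at 28.5 FPKM, followed by Spry2 (22.9), Dusp6 (18.8), Errfi1 (17.8), Spred1 (16.2), Spred2 (16.0), Spry1 (14.1), Dusp1 (12.6), Dusp4 (6.64) and Spry4 (2.44). In Ctrl cells Errfi1 led at 41.0 FPKM, followed by Dusp5 (37.6), Dusp6 (33.5), Spred1 (20.7), Spry2 (19.2), Spred2 (16.1), Dusp4 (9.69), Dusp1 (8.41), Spry1 (6.27) and Spry4 (4.12). Errfi1 thus ranked 4 in NNMT cells and 1 in Ctrl cells, and Spry2 ranked 2 in NNMT cells and 5 in Ctrl cells. Neighbours in the order whose libraries overlapped were Dusp6 and Errfi1, Spred1 and Spred2, and Spry1 and Dusp1 in NNMT cells, and Errfi1 and Dusp5, and Dusp5 and Dusp6, in Ctrl cells. All other neighbours were separated in every library.

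Added up, the 10 genes came to 159.6, 158.8 and 149.7 FPKM in the unnumbered NNMT library and NNMT replicates 2 and 3, against 190.0, 200.8 and 199.2 FPKM in Ctrl replicates 1, 2 and 3. The 4 phosphatases made up 42.6% of this sum in NNMT cells and 45.4% in Ctrl cells. The 3 Sprouty genes made up 25.3% in NNMT cells and 15.1% in Ctrl cells, and Errfi1 alone 11.4% in NNMT cells and 20.8% in Ctrl cells. The phosphatase sum averaged 66.54 FPKM in NNMT cells and 89.28 FPKM in Ctrl cells, and its make-up differed as well. Dusp6 stood at 1.59, 1.49 and 1.38 times Dusp1 in the unnumbered NNMT library and NNMT replicates 2 and 3, against 3.76, 4.18 and 4.04 times in Ctrl replicates 1, 2 and 3.

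**Figure D3:**
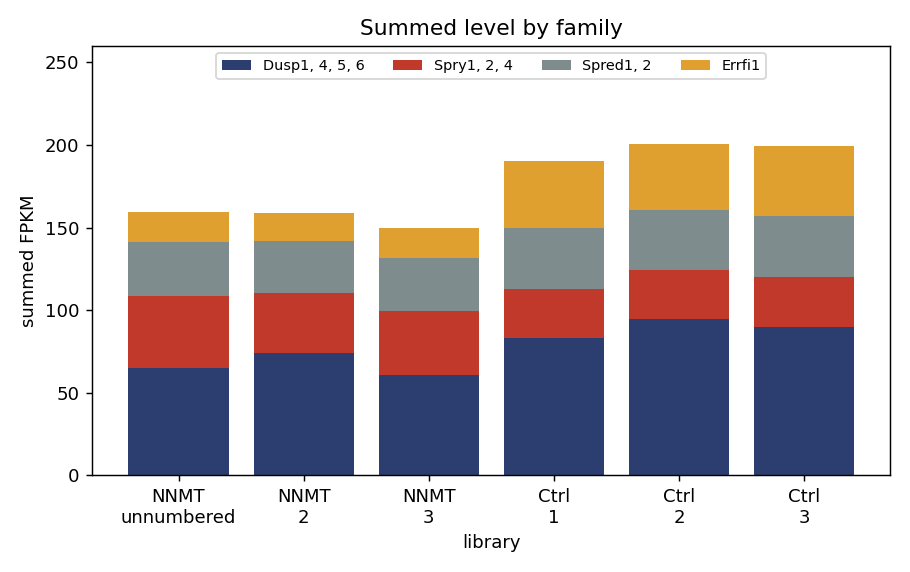
Summed FPKM of the feedback genes in each library, NNMT libraries on the left and Ctrl libraries on the right, stacked by family. Totals are 149.7 to 159.6 FPKM in NNMT libraries and 190.0 to 200.8 FPKM in Ctrl libraries; in NNMT libraries the Errfi1 block is shorter and the Sprouty block taller than in Ctrl libraries.

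Within a group, Dusp4, Dusp5 and Dusp6 varied in the same libraries. In NNMT cells all 3 were highest in replicate 2, at 21.1%, 11.7% and 9.42% above their group means, and lowest in replicate 3, at deviations of -14.9%, -8.58% and -11.1%. In Ctrl cells all 3 were highest in replicate 2 and lowest in replicate 1. Their coefficients of variation were 10.3% to 18.8% in NNMT cells and 4.48% to 9.28% in Ctrl cells, where those of Spred1 were 2.49% in NNMT cells and 1.92% in Ctrl cells. Dusp1, which rose, was also highest in NNMT replicate 2, at 9.22% above its NNMT mean, but lowest in the unnumbered NNMT library. In Ctrl cells Dusp1 was highest in replicate 1 and lowest in replicate 3. NNMT replicate 2 was at the same time the lowest NNMT library for Spry1, Spry2, Spred2 and Errfi1. The highest and lowest libraries of Dusp4, Dusp5 and Dusp6 in both groups were also those of Hbegf, Ccn1 and Etv4, looked at after their values were seen. In Ctrl cells Etv4 deviated by only -1.88% to 1.93%. Ccnd1 and Etv5, looked at in the same way, were also highest in replicate 2 of each group but differed in their lowest libraries. Both were lowest in the unnumbered NNMT library, and Etv5 was lowest in Ctrl replicate 3. Hbegf and Etv4 were lower and Ccn1 was higher in NNMT cells. In NNMT replicate 2 Hbegf, Ccn1 and Etv4 stood 15.1%, 15.8% and 5.88% above their NNMT means. With 3 libraries a group these orders are a description and were not tested.

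**Figure D4:**
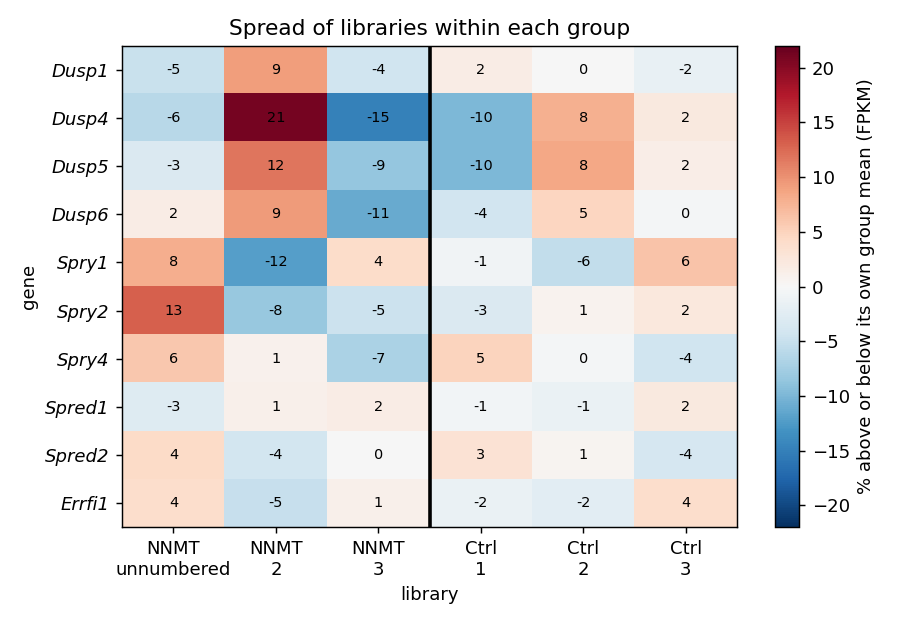
Deviation of each library from the mean of its own group, in percent of FPKM, for each feedback gene; NNMT libraries are left of the black line and Ctrl libraries right of it. Dusp4, Dusp5 and Dusp6 share their highest and lowest libraries in each group, and Dusp4 in NNMT replicate 2 (21.1%) is the widest deviation.

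Other genes of the pathway were read from 7 lists. Of 29 tested genes known to respond to ERK, 18 (62.1%) were lower and 4 (13.8%) higher in NNMT cells, where 30.6% of all genes tested were lower and 35.0% higher. Their median log2 fold change was -0.22, beside 0.03 for all genes tested. Because the list was chosen with earlier results of these data known, its shares and median are a description only. The ETS factors Etv4 and Etv5, which FGF and ERK signalling induces together with Dusp6 and the Sprouty genes, were 3.59-fold and 2.01-fold lower in NNMT cells, and the potassium channel Kcnn4 was 3.95-fold lower. Etv4 stood at 9.35, 9.88 and 8.76 FPKM in the unnumbered NNMT library and NNMT replicates 2 and 3, against 32.9, 34.1 and 33.5 FPKM in Ctrl replicates 1, 2 and 3. The 4 that were higher were Ccn1, Arc, Myc and Egr2, at 2.07-fold, 3.12-fold, 1.56-fold and 1.56-fold, named after their values were seen.

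The lists of the cascade, its receptors and their ligands passed the threshold in 62.5%, 73.9% and 76.9% of genes tested, beside 65.6% of all genes. Shares called in either direction thus say little about the lists themselves. By direction, 45.8% of the cascade list was lower and 16.7% higher, beside 30.6% and 35.0% of all genes tested. The receptor list had 34.8% lower and 39.1% higher, and the ligand list 30.8% lower and 46.2% higher. Of 24 tested Ras-ERK genes, 11 were lower and 4 higher (median -0.10). The X-linked kinases Rps6ka3 and Araf were 2.59-fold and 1.44-fold lower and the ERK-activated kinase Mknk2 1.67-fold lower in NNMT cells. All 3 X-linked genes tested in this list (Rps6ka3, Araf and Elk1) were lower, and the part of any X-wide difference was not tested. Of 23 receptors and adaptors, 9 were higher and 8 lower (median 0.04), with Fgfr1, Pdgfrb and the collagen receptor Ddr1 2.12-fold, 1.84-fold and 1.55-fold higher. Of 13 ligands, 6 were higher and 4 lower (median 0.09), with Hgf and the Axl ligand Gas6 1.84-fold and 2.2-fold higher and Fgf2 3.1-fold lower. Fgf2 rested on 172 reads in NNMT libraries and 501 in Ctrl libraries.

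In the lists of other inhibitors and of the other MAP kinases, those past the threshold were 8 of 16 phosphatases and feedback relatives outside the 10, 68.4% of the Ras GTPase-activating proteins and other negative regulators, and 63.2% of the JNK, p38 and ERK5 kinases, also beside 65.6% of all genes tested. Of 16 tested phosphatases and feedback relatives outside the 10, 5 were higher and 3 lower (median 0.04). Dusp9, an X-linked ERK phosphatase, was 2.73-fold lower in NNMT cells, the X-linked adaptor Sh3kbp1, which links Cbl to receptor uptake, was 2.77-fold lower, and Lrig3, a membrane protein related to the receptor inhibitor Lrig1, was 2.11-fold higher. Dusp9 and Sh3kbp1 were the only X-linked genes tested in this list, and the part of any X-wide difference was not tested. Of 19 Ras GTPase-activating proteins and other negative regulators, 8 were higher and 5 lower (median 0.10), with the G protein regulator Rgs2 and Rasa1 2.5-fold and 1.68-fold lower and the ubiquitin ligase gene Cblb 1.9-fold higher. Of 19 JNK, p38 and ERK5 kinases, 5 were higher and 7 lower (median -0.09), with Mapkapk2, Map2k6 and Map3k3 1.31-fold, 1.61-fold and 1.29-fold lower.

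**Figure D5:**
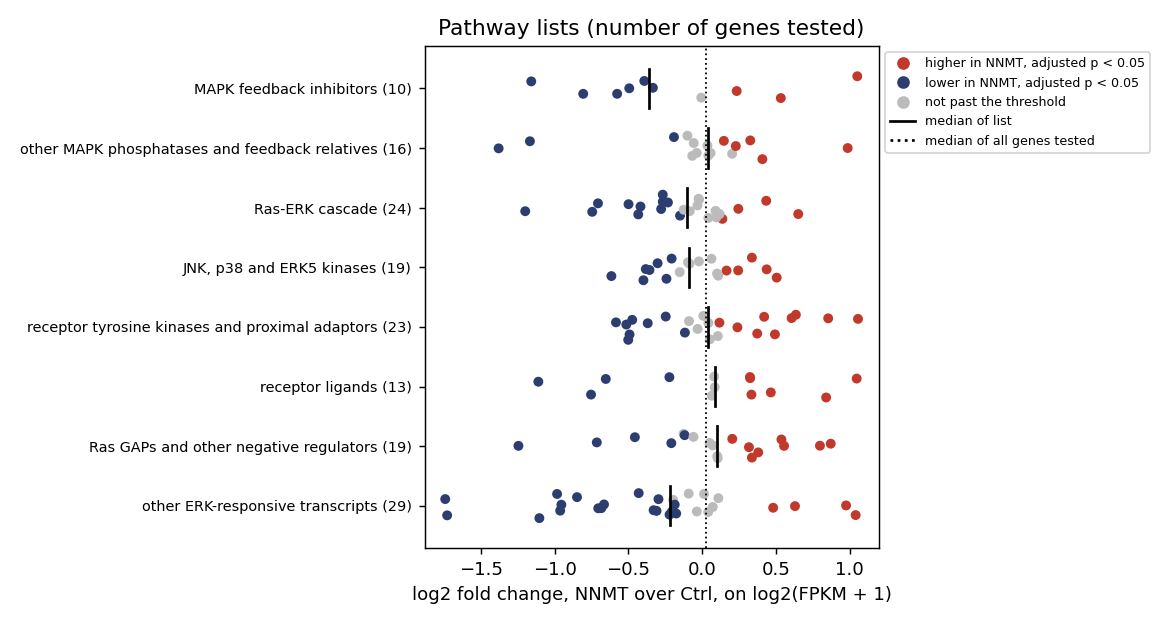
Log2 fold change, NNMT over Ctrl on log2(FPKM + 1), of each tested gene in the feedback inhibitors and the 7 other pathway lists; points are genes, coloured by direction where the limma adjusted p was under 0.05, black lines are list medians and the dotted line is the median of all genes tested (0.03). The feedback inhibitors (-0.36) and the other ERK-responsive transcripts (-0.22) have the lowest medians of the 8, and both hold genes on either side of 0.

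By the pattern over the 6 libraries, the protein-coding genes most like Errfi1, the member with the smallest adjusted p, were Gpkow, Dsel and Rhox5, with Pearson correlations on log2(FPKM + 1) of 0.9996, 0.9992 and 0.9991. Since the libraries form 2 separate groups, such values are common: 323 of 10255 genes compared exceeded 0.99. A correlation takes no account of the size of a change. The log2 fold changes of Gpkow, Dsel and Rhox5 were -0.64, -0.81 and -5.19, against -1.16 for Errfi1.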

How the data were processed

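RNA was sequenced in 3 NNMT and 3 Ctrl libraries of mouse 3T3 cells. CASAVA, STAR 2.5 and the build mm10 are named, per the submitters' processing notes; these sources do not give the counter, annotation or strand setting. The authors deposited values without a unit, taken here as FPKM because they are whole multiples of a step: reads were recovered for 20528 of 20528 genes above 0 (tolerance 0.01 of a read), 71.1% with the length of the longest GENCODE M21 transcript, which also gave symbols and GRCm38 coordinates for 34490 of 35275 rows. The NNMT column without a number was used as the remaining NNMT library. Libraries of a group differed beyond counting noise (chi-square of 5.7 to 20.2 per degree of freedom).

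limma 3.58.1 (R 4.3.3) was run on log2(FPKM + 1) for genes that averaged 1 FPKM or more (trend, robust, two-sided, Benjamini-Hochberg over all genes tested, threshold 0.05). The script was also tested on simulated data, in which fewer genes changed than were called here and all libraries had the same spread. That simulation is not used as support for the calls. Folds are ratios of mean FPKM where each group had at least 10 reads. The design named another test for counts, which the unit did not call for. All 10 members are named; each other list gives up to 3 genes with the smallest adjusted p, and any further gene was picked with its values known, as the text says. Members and lists were chosen with earlier results of these data known. Alternatives were other scalings, filters, pseudocounts and moderation, limma-voom, a replicate block and leaving out each library. No protein sequences were compared, and the Dusp4 and Spry4 promoters were not analysed here.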

Additional observations from a re-analysis of the deposited data

How the results depend on the processing

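Apart from Spry2 and Spred2, the members kept their direction and their call under every alternative that could be run. Spred2 was never past the threshold, and its sign near 0 varied (log2 fold change -0.05 to 0.02). Spry4 was not tested with a filter of 5 FPKM. Spry2 stayed higher in NNMT cells but missed the threshold with medians of ratios scaling (adjusted p = 0.0501), with no filter (0.052), without Ctrl replicate 1 (0.0502) and in the fits on the 4 numbered libraries with the replicate block (0.0685) and, an alternative chosen after seeing the data, without it (0.0779). The count of members called was 8 or 9 throughout. With a pseudocount of 10 the changes shrank by construction (Errfi1 to -0.87, Spry4 to -0.18). Over all genes 7109 were called with the replicate block and 6628 without it on the same libraries. Same-numbered libraries deviated together at correlations of 0.212 and 0.11 over 10882 genes, and with only 2 such pairs the numbers were not taken as pairing. Leaving out 1 library gave 6390 to 7120 calls over all genes, against 7140. Under medians of ratios scaling the balance over all genes turned, to 3394 higher and 3788 lower.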
